A study of Mus musculus with 10 samples.

Results

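Hox genes encode homeodomain transcription factors, and 33 of the 39 that the mouse gene table lists in its Hoxa, Hoxb, Hoxc and Hoxd clusters could be followed here in the urogenital system of the embryo. A gene was included when the platform annotation gave it a probe set with a single symbol made of Hoxa, Hoxb, Hoxc or Hoxd and a number. These 33 genes had 48 probe sets and are part of 18193 genes tested. The other Hox genes of the gene table had no such probe set and were not analysed here. Whole urogenital systems were taken from mouse embryos of embryonic day 15.5, and their RNA was hybridized to 10 Affymetrix arrays. In 5 pools the embryos had the genotype Wnt9bcneo/cneo and are called homozygous. The other 5 pools are called control, because their genotype label is Wnt9bcneo/+, with 1 cneo allele, while their titles name them wild type. Each pool held RNA of 1 to 2 urogenital systems. How the cneo allele alters Wnt9b is not described in the labels, nor do they give a strain or the sex of the embryos. Wnt9b is a Wnt signal that the Wolffian duct and its ureteric branches send to the mesenchyme to start nephrons. The comparison shows how Hox transcripts differ between the genotypes.

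Within each Hox cluster the genes lie in the order in which their domains begin along the body, so that low numbers mark anterior and high numbers posterior levels. Genes of the same number in different clusters form a paralogous group and often act redundantly. In the urogenital tract, the genes of group 11 are needed in the kidney mesenchyme for ureteric branching and nephron formation, those of group 10 act in the renal stroma and the reproductive ducts, and those of group 13 pattern the hindmost tract, the genital tubercle and the end of the gut.

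The arrays had the same trimmed mean intensity, 500, and their number limits the precision. Wnt9b ranged from 47.8 to 201 intensity units in homozygous pools and from 120.8 to 143.4 in control pools, with a log2 difference of -0.23 ± 0.36 (SE; limma adjusted p = 0.803), so these probes do not separate the genotypes. The actin control probe sets, read as the 3' signal over the middle one, give a ratio that rises as RNA is degraded. It lay between 9.87 and 33.13 in 8 pools but at 97.67 in homozygous pool 5 and at 94.77 in control pool 1. Homozygous pools 3, 4 and 5 had Xist at 13.75 to 14.27 (log2), as female tissue does, while the other 7 pools had 5.13 to 6.07. Markers of the hindgut lining had a list mean of 8.05 (log2) in control pool 2 and of 4.44 to 4.96 in the other 9 pools. Of the 8 markers, the goblet cell gene Tff3 was at 13.14 and the mucin gene Muc2 at 10.38 in that pool. Markers of cartilage had a list mean of 9.95 in control pool 5 against 5.63 to 6.64 elsewhere.

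No Hox gene differed between the genotypes past the threshold. In limma, 0 of 33 had an adjusted p under 0.05, where 0.967% of all genes did (0.539% higher and 0.429% lower in homozygous pools). At an unadjusted p under 0.05, 10 Hox genes (30.3%) were lower and 0 were higher in homozygous pools. Among all genes 15.7% had such a p, 5.89% lower and 9.83% higher. The log2 difference was below 0 in 23 Hox genes, above 0 in 9 and 0 in Hoxd12, and its median was -0.36 over the 33, against a median of 0 over all genes. Of all genes 46.1% were below 0, 50% above and 3.9% at 0. The pools of the genotypes overlapped for all 33 Hox genes, while they did not for 4.71% of all genes (2.61% higher and 2.1% lower in homozygous pools). In this whole-tissue RNA, fewer cells of a type and less RNA per cell cannot be told apart.

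**Figure D1:**
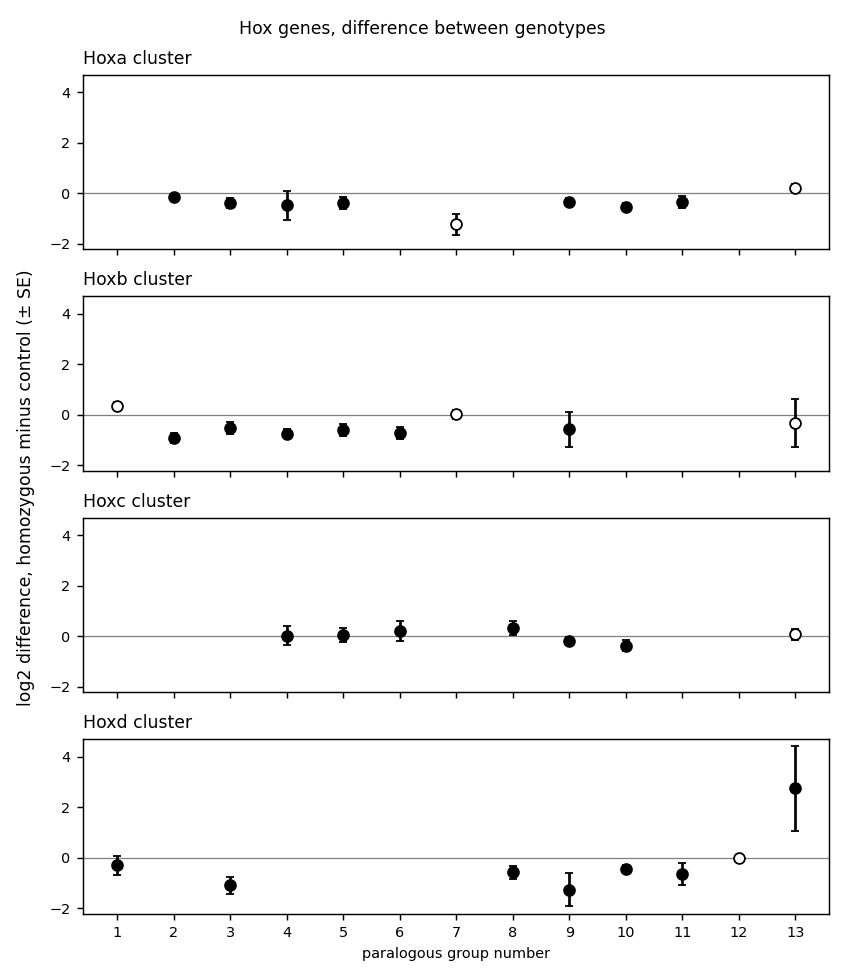
Log2 difference of each Hox gene, homozygous minus control, by cluster and paralogous group number, with its standard error (5 against 5 pools). Open circles are genes at the floor of 16 intensity units on at least 1 array. Hoxb2 to Hoxb6 run from -0.91 to -0.51, the Hoxc genes lie between -0.36 and 0.34, and Hoxd13 stands at 2.75 with the widest error.

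Read by cluster, the lower values were found in Hoxb, Hoxd and Hoxa. The Hoxb cluster (GRCm38.p6, chromosome 11, 96194316 to 96368254) had 9 tested genes, of which 7 were below 0, with a median of -0.57. The Hoxd cluster (chromosome 2, 74668225 to 74765142) had 8 tested genes, 6 of them below 0, with a median of -0.50, or -0.58 without Hoxd12, which was at the floor in every pool. In the Hoxa cluster (chromosome 6, 52155367 to 52260880) 8 of 9 genes were below 0, and the median was -0.38. The Hoxc cluster (chromosome 15, 102921131 to 103036856) had 2 of 7 genes below 0 and a median of 0.04. This rested on single pools, since the Hoxc median was -0.20, with 4 of 7 genes below 0, without control pool 2, and -0.04 without homozygous pool 2. Read by position, the medians were -0.38 over 7 anterior genes (groups 1 to 3), -0.43 over 12 central genes (groups 4 to 8) and -0.34 over 14 posterior genes (groups 9 to 13). The central median was -0.21 without homozygous pool 5 and -0.22 with a floor of 64. The posterior median was -0.128 without the pools of high Xist and -0.012 with Xist as a covariate. The mean log2 intensity of the Hoxc genes was 7.96 to 8.59 in homozygous and 7.55 to 8.56 in control pools, and the lowest was control pool 2. These are descriptions of the chosen genes, with no test of one cluster against another.

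Hoxb2, which patterns the hindbrain and cranial nerves, had the smallest p of the Hox genes. Its intensity was 767, 1227, 729, 939 and 673 in homozygous pools 1 to 5 and 1868, 1090.3, 1619, 1751 and 1737 in control pools 1 to 5. Homozygous pool 2 lay above control pool 2, and these were the only pools of the 2 groups that overlapped. The mean log2 intensity was 9.72 ± 0.35 (SD, n = 5) in homozygous and 10.63 ± 0.31 (SD, n = 5) in control pools, a difference of -0.91 ± 0.20 (SE; limma adjusted p = 0.0707; exact two-sided permutation p = 0.0159). The 95% interval of the difference was -1.36 to -0.46. Neither this interval nor the permutation p is adjusted for the choice of Hoxb2 by its p. Without control pool 2 the difference was -1.04 (limma adjusted p = 0.0287), and without homozygous pool 2 it was also -1.04 (limma adjusted p = 0.0381). Leaving out either of these overlapping pools by itself favours a larger difference. When any other single pool was left out, Hoxb2 was not past the threshold.

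Hoxb4, known for its effect on self-renewal of blood stem cells, followed next. Its intensity was 290.1, 532, 389.5, 456 and 370.1 in homozygous pools 1 to 5 and 775, 503, 768, 699.8 and 647 in control pools 1 to 5. Again only the pools numbered 2 overlapped, homozygous pool 2 being above control pool 2. The difference was -0.75 ± 0.18 (SE; limma adjusted p = 0.0864; exact permutation p = 0.0159). It was -0.85 without control pool 2 (limma adjusted p = 0.0493), the lowest control of Hoxb4, and leaving out that pool by itself favours a larger difference. Its dimmer probe set, at the floor on 1 array, differed by -0.34 ± 0.42 (SE). Without control pool 2, Hoxb2 and Hoxb4 were the 2 Hox genes of 33 past the threshold, where 2.28% of all genes passed in either direction and 0.748% passed as lower. Without homozygous pool 2 only Hoxb2 passed, where 1.37% of all genes did and 0.484% passed as lower. With array weights, which count a pool less when its genes lie far from their genotype means, Hoxb2 and Hoxb4 passed (limma adjusted p = 0.0258 and 0.0416). In that fit 5.23% of all genes passed and 1.97% passed as lower. Hoxb2 alone passed among 13 Hox genes left without the dimmest 60% of genes (limma adjusted p = 0.0498; 1.48% of genes, 0.577% lower). It also did so among 31 left without genes at the floor on more than 5 arrays (limma adjusted p = 0.0406; 2.3% of genes, 0.91% lower).

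The sequence upstream of a few members is shown because Hox genes at the anterior end of the clusters are known to respond to retinoic acid, whose receptors bind repeats of the half-site AGGTCA, and because Hoxd13 had the widest range of all members. Each window holds the 250 bases before the RefSeq start site in GRCm38.p6, on the plus strand: chr11:96318017-96318266 for Hoxb4, chr2:74711743-74711992 for Hoxd3 and chr2:74667975-74668224 for Hoxd13. Capitals mark AGGTCA or its reverse complement TGACCT, and TATAAA, the core promoter motif, or its reverse complement TTTATA.
Hoxb4: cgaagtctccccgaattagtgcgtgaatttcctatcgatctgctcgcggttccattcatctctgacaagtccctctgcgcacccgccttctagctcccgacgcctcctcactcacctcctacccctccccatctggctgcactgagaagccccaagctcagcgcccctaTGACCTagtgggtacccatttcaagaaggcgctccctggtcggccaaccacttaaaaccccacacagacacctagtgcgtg
Hoxd3: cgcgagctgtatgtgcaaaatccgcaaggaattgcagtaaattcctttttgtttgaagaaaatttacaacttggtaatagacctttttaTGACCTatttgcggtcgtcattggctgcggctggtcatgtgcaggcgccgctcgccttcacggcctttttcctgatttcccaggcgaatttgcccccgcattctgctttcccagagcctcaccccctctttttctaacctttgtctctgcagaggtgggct
Hoxd13: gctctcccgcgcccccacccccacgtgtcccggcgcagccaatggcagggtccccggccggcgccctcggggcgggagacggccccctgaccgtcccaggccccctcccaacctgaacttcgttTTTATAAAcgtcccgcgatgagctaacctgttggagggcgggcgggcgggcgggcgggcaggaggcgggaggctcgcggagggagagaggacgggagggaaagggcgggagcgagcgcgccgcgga
The Hoxb4 window held AGGTCA on the minus strand at -81 from the start site and the Hoxd3 window at -161. In the Hoxd13 window, TATAAA on the plus strand at -124 overlapped its own reverse complement at -126. Of 32851 windows of the same length in the RefSeq table, 14% held AGGTCA and 12.4% held TATAAA on either strand. The table matched 19 of the 33 Hox genes with 21 windows, of which 5 held AGGTCA (Hoxb4, Hoxc4, Hoxd3, Hoxd8 and Hoxd10) and 2 held TATAAA (Hoxa10 and Hoxd13). These windows had a median GC content of 59.2% and a median of 13 CpG dinucleotides, against 52.4% and 6 over all windows. Such matches describe letters and show no binding.

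Hoxb5 and Hoxb6 lie to 1 side of Hoxb4 on the chromosome, and Hoxb3 spans Hoxb4 in the RefSeq positions. Hoxb3, Hoxb5 and Hoxb6 had differences of the same sign as Hoxb4. Hoxb6, a trunk and limb gene, measured 525, 844, 606, 792 and 727 in homozygous pools 1 to 5 and 1844, 760.2, 1181, 1086 and 1050.5 in control pools 1 to 5. Its control pool 1 was the highest and control pool 2 the lowest of the controls, below homozygous pools 2 and 4. The difference was -0.72 ± 0.23 (SE; limma adjusted p = 0.165). Hoxb5, which acts in neural crest and lung development, measured 541, 984, 687, 953 and 978.5 in homozygous pools and 1942, 956, 1189, 1196 and 1057 in control pools, and differed by -0.61 ± 0.23 (SE; limma adjusted p = 0.251). Hoxb3, a hindbrain and neck gene, measured 2165, 2513, 3026, 3594 and 3555 in homozygous pools and 7017, 3486, 3654, 3775 and 3682 in control pools. Homozygous pools 4 and 5 thus reached the control range, and control pool 1 stood far above the other controls. Hoxb3 differed by -0.51 ± 0.22 (SE; limma adjusted p = 0.314), and its dimmer probe set by -0.73 ± 0.34. Without control pool 1 the difference was -0.32 (limma adjusted p = 0.323). With the actin ratio as a covariate its difference was -0.63 (limma adjusted p = 0.0379), the only Hox gene of 33 past the threshold in that fit, where 2.69% of all genes passed and 1.39% passed as lower. Hoxb9, of the trunk and mammary gland, differed by -0.57 ± 0.70 (SE), and by -0.10 without homozygous pool 5 and -0.95 without control pool 1. Its difference was above 0, at most 0.42, without the pools of high Xist and with Xist as a covariate. Hoxb1, a hindbrain gene, and Hoxb7, whose promoter is widely used to drive transgenes in the ureteric bud, were at the floor of 16 on 3 and 4 arrays and never above 28.9, and their differences of 0.34 and 0.02 lie at the edge of what the floor allows to be seen.

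**Figure D2:**
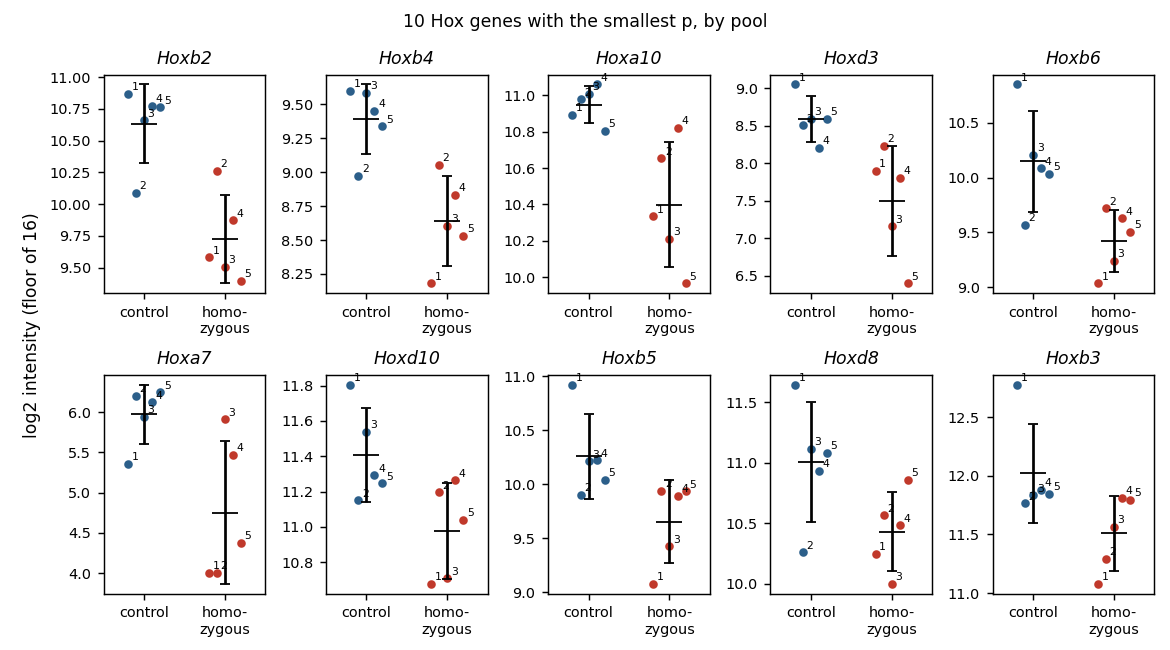
Log2 intensity in each pool for the 10 Hox genes with the smallest p, with pool numbers beside the points, and the mean and SD of each genotype as bars (n = 5). In every panel at least 1 homozygous pool reaches the control range. For Hoxb2 and Hoxb4 the overlap is between homozygous pool 2 and control pool 2.

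Antisense to these genes, Hoxb5os measured 1456, 2450, 1727, 3125 and 2788 in homozygous pools 1 to 5 and 6599, 2800, 4762, 3609 and 3349 in control pools. It differed by -0.86 ± 0.28 (SE; limma adjusted p = 0.178). Its highest pool was control pool 1, as for Hoxb3, Hoxb5 and Hoxb6. Whether its probes read Hoxb5os apart from overlapping transcripts was not tested. Of 14 listed noncoding transcripts of the Hox clusters 3 were measured, and none passed. Hoxa11os and Hoxd3os1 differed by -0.32 and -0.25.

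In the Hoxd cluster, Hoxd3, which patterns the neck vertebrae, measured 239, 301.5, 143, 224 and 84.4 in homozygous pools 1 to 5 and 529.5, 363, 386, 295.6 and 385 in control pools. Homozygous pool 2 and control pool 4 overlapped, and homozygous pool 5 was the lowest of all. The difference was -1.09 ± 0.34 (SE; limma adjusted p = 0.159; exact permutation p = 0.0159). Hoxd8, a trunk gene, measured 1215, 1516, 1025, 1431 and 1856 in homozygous pools and 3202, 1227, 2217, 1953 and 2172 in control pools, a difference of -0.58 ± 0.25 (SE; limma adjusted p = 0.311). Control pool 1 was the highest and control pool 2, which lay below 3 of the homozygous pools, the lowest control. Its second probe set differed by -0.50 ± 0.30 (SE). Hoxd9, a trunk and hindlimb gene, had a wider spread, at 623, 648, 178, 414 and 74.3 in homozygous and 306, 496.5, 1037, 1014 and 1053 in control pools, and differed by -1.25 ± 0.66 (SE; limma adjusted p = 0.415). The difference was -0.75 without homozygous pool 5 and 0.02 with Xist as a covariate. Hoxd1 differed by -0.30 ± 0.36 (SE), and by -0.53 without homozygous pool 5 and -0.17 without control pool 1. Hoxd12, of the limb and genital tubercle, was at the floor of 16 in all 10 pools, so its difference of 0 carries no information.

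Hoxa7, a trunk gene, was dim, at 16, 16, 60.1, 44.4 and 20.8 in homozygous pools 1 to 5 and 40.9, 73.8, 61.6, 69.7 and 75.8 in control pools. Homozygous pools 1 and 2 were at the floor, and pools 3 and 4 lay above control pool 1. It differed by -1.22 ± 0.41 (SE; limma adjusted p = 0.178), which the floor holds down, and by -0.11 with a floor of 64. The remaining Hoxa genes of groups 2 to 5 were below 0 as well, with Hoxa2 at -0.16, Hoxa3 at -0.38, Hoxa4 at -0.47 and Hoxa5 at -0.39. Without homozygous pool 5 Hoxa2 and Hoxa4 differed by -0.10 and -0.09, and without control pool 1 Hoxa4 and Hoxa5 differed by -0.85 and -0.20. Hoxa4 was above 0, at most 0.16, without the pools of high Xist and with Xist as a covariate. Hoxa3 had 4 probe sets, which differed by -0.38, -0.17, -0.32 and 0.38. Of 11 Hox genes with more than 1 probe set, 3 had probe sets of opposite sign, and in Hoxa3 and Hoxa9 these were above the floor on all arrays.

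The paralogues with known roles in the kidney came next. Hoxa10, which acts in the renal stroma and in the uterus and testis ducts, measured 1292, 1611, 1185, 1812 and 999.6 in homozygous pools 1 to 5 and 1904, 2018, 2063, 2136 and 1789.7 in control pools. The controls were tightly grouped, at 10.95 ± 0.10 (log2; SD, n = 5), and only homozygous pool 4 reached their lowest pool. Its difference was -0.55 ± 0.15 (SE; limma adjusted p = 0.121; exact permutation p = 0.0159). Its partner Hoxd10, also needed for hindlimb motor neurons, measured 1639, 2346, 1674, 2461 and 2105 in homozygous pools and 3578, 2273, 2973, 2508 and 2432 in control pools. Homozygous pools 2 and 4 lay within the control range, and the difference was -0.43 ± 0.16 (SE; limma adjusted p = 0.239). Hoxc10, the third gene of group 10, measured 1845, 2403, 1819, 2281 and 1962 in homozygous pools and 3621, 1602, 2577, 3064 and 2755 in control pools. Control pool 2 was the lowest of all 10, and Hoxc10 differed by -0.36 ± 0.20 (SE; limma adjusted p = 0.451). Without control pool 2 its difference was -0.54 (limma adjusted p = 0.0735), and its pools did not overlap. Leaving out the lowest control by itself favours both.

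Hoxa11 and Hoxd11 stand for the group that the kidney mesenchyme depends on. Hoxa11 measured 171, 375, 206, 365 and 222 in homozygous pools 1 to 5 and 312, 313, 253, 423 and 337.5 in control pools. Homozygous pools 2 and 4 were above 4 of the 5 controls, while pools 1, 3 and 5 were below all controls. The difference was -0.34 ± 0.25 (SE; limma adjusted p = 0.572), with a 95% interval of -0.91 to 0.22, and was -0.20 without homozygous pool 1. Hoxd11 was dim, with 16.6 to 63.4 in homozygous and 33.8 to 94.4 in control pools, and differed by -0.63 ± 0.43 (SE; limma adjusted p = 0.546), or by -0.31 without homozygous pool 5. Of 9 listed kidney partners and targets of group 11, 7 were measured, 6 of them below 0, and none passed. Gdnf, the growth factor that calls the ureteric bud and is regulated by the group 11 proteins, differed by -1.29 ± 0.37 (SE; limma adjusted p = 0.128), and the progenitor gene Six2, another of their targets, by -0.91 ± 0.30 (SE; limma adjusted p = 0.178). Group 9 was below 0 in all 4 measured genes. Hoxa9, active in the oviduct, measured 3282, 4225, 3219.9, 4801 and 4669 in homozygous pools and 6880.5, 4255, 5065, 4851 and 4478 in control pools. Homozygous pools 4 and 5 lay within the control range. It differed by -0.34 ± 0.17 (SE; limma adjusted p = 0.373), by -0.22 without control pool 1, and by 0.03 on its dimmer probe set.

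Markers of kidney cells were read beside these values. The list mean of 10 nephron progenitor markers was 9.08 to 9.44 (log2) in homozygous and 9.46 to 10.16 in control pools, with 9 of 10 genes below 0 and none past the threshold. The means of 9 ureteric markers were 9.30 to 9.96 and 10.11 to 10.43, with 8 below 0 and none past the threshold. For 9 nephron tubule markers they were 8.06 to 8.82 and 9.21 to 10.09, with all 9 below 0 and 4 past the threshold. Of 7 renal stroma markers 5 were measured, with means of 11.01 to 11.52 and 11.09 to 11.46, and none passed, and these ranges overlapped. In the opposite direction, 14 measured sympathetic neuron and chromaffin markers had means of 9.38 to 10.66 in homozygous and 5.58 to 8.94 in control pools, all 14 above 0 and none past the threshold. No marker of these lists was at the floor on all arrays. Their part in the values of the Hox genes was not tested.

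**Figure D3:**
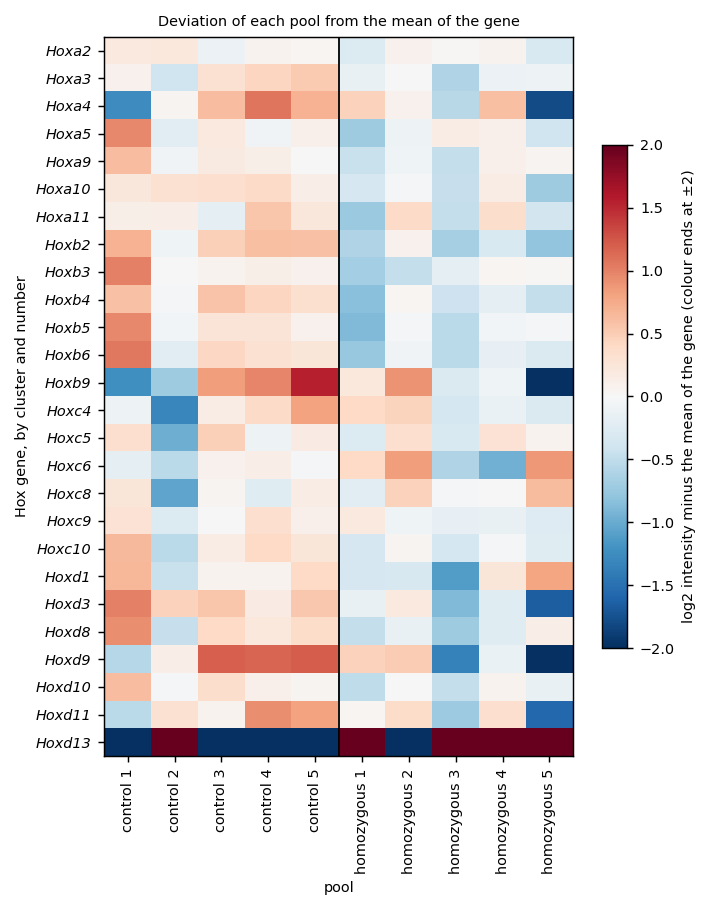
Log2 intensity of each pool minus the mean of the gene over the 10 pools, for the 26 Hox genes never at the floor, by cluster and number. Columns are pools, and colours end at ±2, which Hoxd13 passes. Control pool 1 is high for Hoxb3 to Hoxb6 and low for Hoxa4, Hoxb9 and Hoxd9, and control pool 2 is low for the Hoxc genes.

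At the posterior end, Hoxd13 split the pools in another way than the genotype. It acts in the digits, the genital tubercle and the anal sphincter. Its intensity was 970.0, 25, 1346, 1925 and 1564 in homozygous pools 1 to 5 and 50.9, 3670, 37.3, 43.5 and 23.4 in control pools 1 to 5. It was high in 4 homozygous pools and in control pool 2, and low in homozygous pool 2 and the other 4 control pools. The mean was 9.30 ± 2.62 (SD, n = 5) in homozygous and 6.55 ± 2.99 (SD, n = 5) in control pools. This gave a difference of 2.75 ± 1.68 (SE; limma adjusted p = 0.489; exact permutation p = 0.198). Its interval of -1.04 to 6.54 covers 0. Without control pool 2 the difference was 4.08 (limma adjusted p = 0.15) and without homozygous pool 2 it was 3.91 (limma adjusted p = 0.232). Its second probe set was at the floor on 5 arrays and never above 25.2.

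Hoxb13, of the prostate and the hindgut end, was at 431 in control pool 2 and at the floor in the other 4 control pools. In homozygous pools 1 to 5 it measured 17.4, 16, 16, 47.6 and 42.8. Pools 4 and 5, the only homozygous ones clearly over the floor, were also high for Hoxd13. The difference of -0.33 ± 0.96 (SE; limma adjusted p = 0.915) turned to 0.62 without control pool 2. Hoxa13 and Hoxc13 were each at the floor on 5 arrays and never above 30.6. Evx1, a homeobox gene of the posterior body next to Hoxa13, had its highest value, 192.6, in control pool 2, and measured 36.3, 16, 62.9, 103.3 and 16 in homozygous pools 1 to 5.

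Beside the Hoxd13 values, the list mean of 6 bladder lining markers was 9.28 (log2) in control pool 2 and 6.82 to 7.73 in the other controls. It was 9.10, 7.84, 7.37, 8.77 and 8.65 in homozygous pools 1 to 5, so homozygous pool 3, with high Hoxd13, had the lowest of these. In control pool 2, Krt5 (10.49) and Foxa1 (11.75) were at their highest of all pools. Upk1b (9.43) and Upk2 (8.60) were at their highest among controls there. Upk1a (6.61) and Upk3a (8.78) were below their values in control pool 3 (6.93 and 8.85). The list mean of 7 smooth muscle markers was 10.38 in control pool 2 and 7.85 to 8.81 in the other controls. It was 11.73, 8.96, 10.81, 10.61 and 10.43 in homozygous pools. The 5 pools with high Hoxd13 were the 5 with the highest smooth muscle mean. Of the hindgut genes that were high in control pool 2, the caudal-type homeobox gene Cdx1 was at 130.6 there and at the floor in all other pools. None of the lists had a marker at the floor on all arrays. Whether the amount of bladder, urethral or gut tissue in a pool accounts for the Hoxd13 values was not tested.

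**Figure D4:**
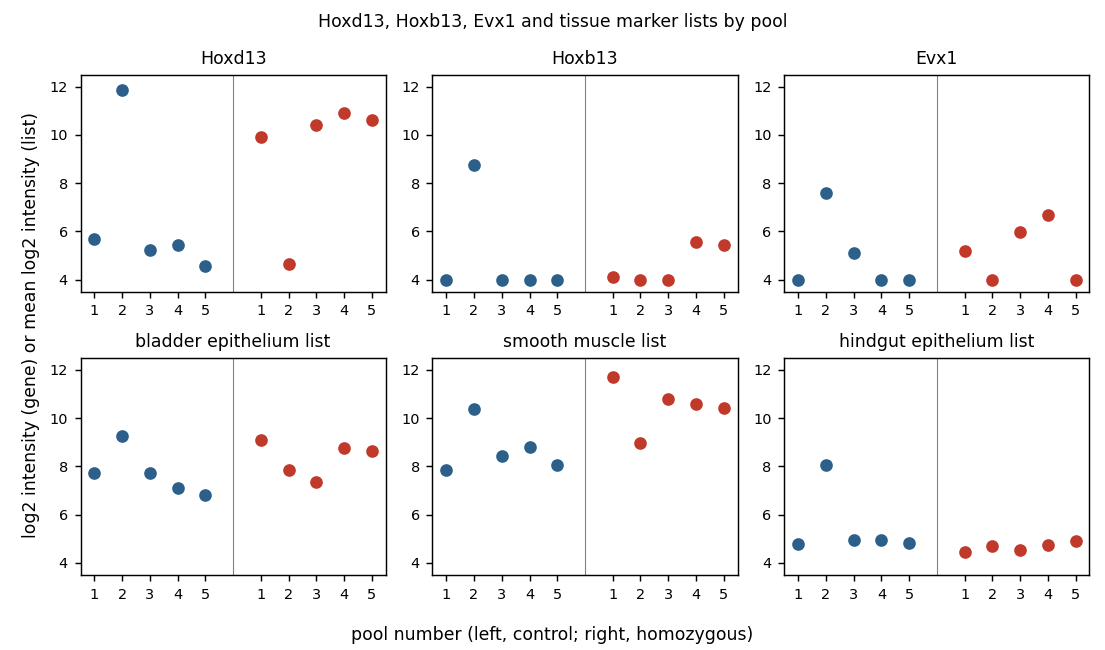
Log2 intensity of Hoxd13, Hoxb13 and Evx1, and mean log2 intensity of the bladder lining, smooth muscle and hindgut marker lists, in control pools 1 to 5 (blue, left) and homozygous pools 1 to 5 (red, right). Hoxd13 is high in control pool 2 and in homozygous pools 1, 3, 4 and 5, and the hindgut list is high in control pool 2.

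Control pool 2 also differed from the other controls over the Hox genes at large. Of the 27 Hox genes without ties among controls, it was the lowest control pool for 17, or 63.0%, against 17.3% of all genes. Homozygous pool 2 was the highest homozygous pool for 15 of 28 Hox genes, or 53.6%, against 21.0% of all genes. Control pool 1 was the highest control for 13 of 27, or 48.1%, against 35.0% of all genes. The Hoxc genes showed the low values of control pool 2 most plainly. Hoxc4, of the neck, was at 163.6 there and at 376 to 704.7 in the other controls. Hoxc5 was at 224.4 there and at 409 to 610.1 in the others. Hoxc8, a trunk and motor neuron gene, was at 622 there and at 1084.5 to 1516 in the others. Hoxc4, Hoxc5 and Hoxc8 differed by 0.03, 0.04 and 0.34 between the genotypes, and by -0.29, -0.20 and 0.12 without control pool 2. Hoxc9 differed by -0.18 and Hoxc6 by 0.22, and without that pool by -0.28 and 0.11. Hoxc13 differed by 0.08, close to the floor. Without control pool 2, the pools of 8 of 33 Hox genes did not overlap and all 8 were lower in homozygous pools, against 8.39% of all genes in either direction. They were Hoxa3, Hoxb2, Hoxb3, Hoxb4, Hoxb5, Hoxb6, Hoxc10 and Hoxd8. Control pool 2 was the lowest control for 17 Hox genes, so leaving it out by itself favours such a count. The share of all genes in the lower direction alone is not given here. The same holds for homozygous pool 2, the highest homozygous pool for 15 Hox genes. Without homozygous pool 2 there were 3 genes without overlap, Hoxb2, Hoxb4 and Hoxd3, against 7.46% of all genes. Without the 3 homozygous pools of high Xist there were 5, against 14.5%, and without both pools of high actin ratio 1, Hoxa7, against 11%.

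**Figure D5:**
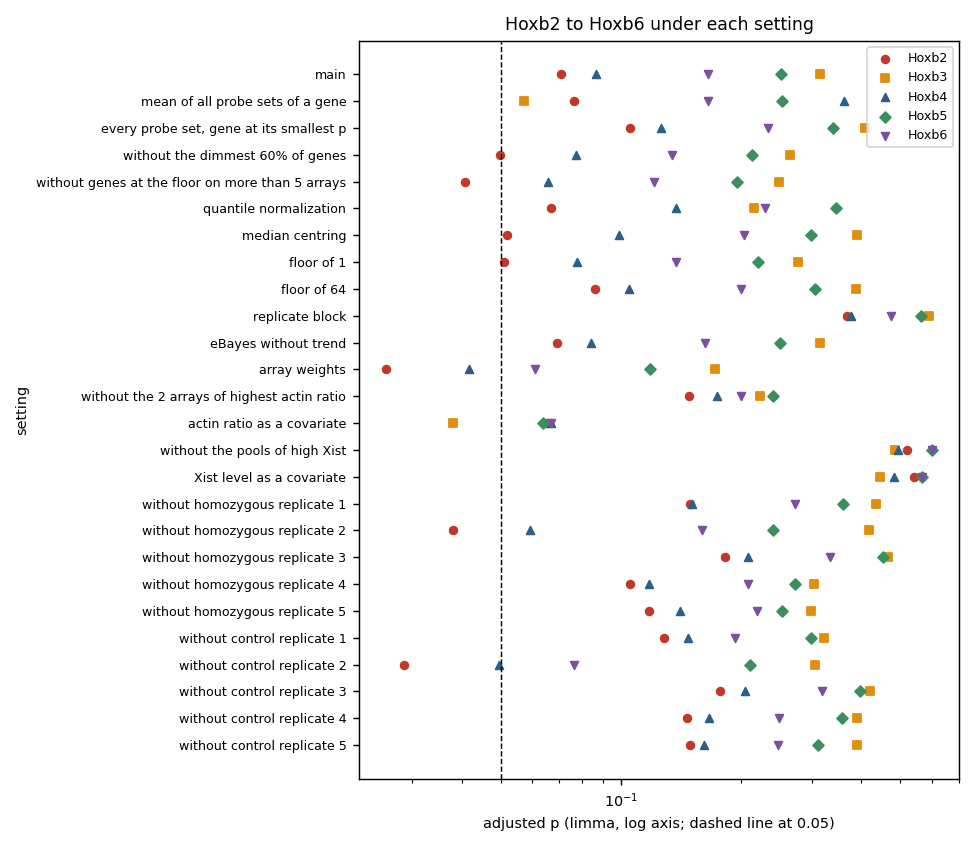
Adjusted p of Hoxb2 to Hoxb6 (limma, log axis) in the reported setting and under each alternative, with the threshold of 0.05 as a dashed line. Most points lie to the right of the line. Hoxb2 passes in 5 alternatives, Hoxb4 in 2, Hoxb3 in 1 and Hoxb5 and Hoxb6 in 0.

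Genes beside the clusters and genes of the Hox machinery showed no differences past the threshold. Of 16 neighbours, the 2 nearest measured genes on each side of each cluster, 8 were below 0 and 8 above, with a median of 0.005. The heterochromatin gene Cbx5, 154.7 kb from Hoxc4, differed by -0.38 ± 0.16 (SE; limma adjusted p = 0.306), and its pools did not overlap. Among all genes 2.1% were lower in homozygous pools without overlap. Skap1, next to Hoxb1, differed by -0.52, while Ttll6, next to Hoxb13, differed by 0.11. Among 8 measured genes of the TALE class, whose proteins bind DNA together with Hox proteins, the median was 0.10. Meis1, one of them, differed by 0.44 ± 0.12 (SE; limma adjusted p = 0.118) and Pbx2 by -0.21. In the Polycomb list, whose products keep Hox genes silent, 10 of 15 genes were below 0 with a median of -0.13, and Eed and Ezh2 differed by -0.21 and -0.20. The pools of Eed did not overlap either (limma adjusted p = 0.136), while those of Ezh2 did. In the Trithorax list, whose products keep them active, 7 of 10 were below 0 with a median of -0.13, and Rbbp5 and Kmt2a differed by -0.33 and -0.37. Of the 3 Cdx genes, upstream activators of the central Hox genes, Cdx1 and Cdx4 differed by -0.61 and 0.03. Each of these differences rests on a single pool. Cdx1 was at the floor in all pools but control pool 2 (130.6), and Cdx4 in all but homozygous pool 3 (17.8).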

How the data were processed

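Biotin-labelled cRNA from 10 pools was hybridized to Affymetrix mouse arrays, per the labels' protocols. The deposited values are linear intensities, 1 for each probe set on each array. The authors' scale is a trimmed mean of 500, as computed from the values with 2% left out at each end. The summary method is not given in the sources used here. The titles of homozygous pools 1 to 4 end in CHP, and no control title does. The series design text speaks of kidney mesenchyme at another stage and of another Wnt9b allele, and the sample labels were followed instead. The labels call the pools distinct but do not tie them to embryos or litters, and p-values reflect only the spread seen among pools.

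Of 45101 probe sets, 64 controls were left out. The platform annotation gave 34945 probe sets 1 symbol, 932 several and 9160 none here; 3 with several Hox symbols were not used. Intensities under 16 were set to 16 and taken to log2. Each of 18193 genes was represented by its brightest probe set over all arrays. Genotypes were compared over all genes with limma 3.58.1 in R 4.3.3 (lmFit, eBayes with trend, no block, two-sided, Benjamini-Hochberg adjusted p under 0.05). Single genes were also compared by an exact permutation test over 252 splits, whose smallest p is 0.00794. The fit was tested on simulated data, where it found 52% of 100 changes of 1 log2 unit and 83% of 100 changes of 2. Of 147 calls there, 12 were false. Positions and sequences come from RefSeq (GRCm38.p6).

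The members and lists were chosen with earlier results of these data known. The genes named are the 10 Hox genes of smallest p, any past the threshold or without overlap, 10 with known urogenital roles (Hoxc11 of them was not measured), those with probe sets of opposite sign or wholly at the floor and, per companion list, the genes past the threshold or the 2 of smallest p. The other Hox genes, Evx1, Tff3, Muc2, the named bladder markers and the named neighbours were named after their values were seen. Alternatives concerned the probe set, dim genes, normalization, floor, variance model, actin ratio, Xist, the replicate number and single pools.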

Additional observations from a re-analysis of the deposited data

Results flagged for a closer look

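Of 64 sets of 5 pools, 7 held a pool whose gap to the next exceeded 0.71 of the whole range. For normal values without a floor, chance flags about 1 in 20. That rate does not hold for sets with several pools at the floor, as in the controls for Hoxb13 and Hoxc13. Control pool 2 was such a pool for 3 genes. It was the highest control for Hoxd13 (gap over range 0.847; 3670 against 23.4 to 50.9) and for Hoxb13 (1; 431 against the floor of 16). For Hoxb2 it was the lowest control (0.734; 1090.3 against 1619 to 1868). Homozygous pool 2 was the lowest of its group for Hoxd13 (0.842; 25 against 970.0 to 1925). Control pool 1, with a high actin ratio, was the highest control for Hoxb3 (0.886; 7017 against 3486 to 3775). Homozygous pool 3 was the lowest of its group for Hoxa3 (0.751; 314 against 433 to 482). For Hoxc13, control pool 5 was the highest (0.94; 30.6 against 16 to 16.6), close to the floor.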

How the results depend on the processing

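Over 25 alternatives to the probe set, filters, normalization, floor, model and pools, 0 Hox genes passed in 19. Without the dimmest 60% of genes 1 of 13 members passed, without genes at the floor on more than 5 arrays 1 of 31 (Hoxb2 in both), with the actin ratio as a covariate 1 (Hoxb3), and with array weights 2 (Hoxb2 and Hoxb4). Without single pools 0 to 2 passed. Hox genes whose pools did not overlap numbered 1 with the mean of all probe sets (Hoxb3; 4.52% of all genes), 1 with median centring (Hoxd3; 4.19%), 1 without both arrays of high actin ratio (Hoxa7; 11%), 5 without the pools of high Xist (14.5%) and 0 to 8 without single pools (5.12% to 8.72%). A count of 1 is a share below each of these. The median of the Hox genes was -0.51 without the dimmest 60% of genes, that of the posterior genes -0.012 with Xist as a covariate, and that of the Hoxb genes -0.75 without the pools of high Xist and -0.78 with Xist as a covariate. The causes were not tested. Fewer genes are tested under the filters, and the median without the dimmest 60% of genes covers only the 13 members left. Of the Hox genes lower in the reported comparison, 19 of 23 kept their sign in all alternatives. Hoxb2 had adjusted p from 0.0258 to 0.541 in limma and Hoxb4 from 0.0416 to 0.494. Same-numbered pools did not deviate together (correlations -0.55 to -0.17, and 0 of 5 homozygous pools were most like their own number). With the replicate block 0 Hox genes and 1 of 18193 genes passed. Genes near the floor of 16 cannot show a fall.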

Other observations

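The 2 pools with a high actin ratio were the lowest of their groups for Hoxa4, Hoxb9, Hoxd9 and Hoxd11. These 4 of 33 Hox genes are a smaller share than the 19.4% among all genes. For Hoxa4, homozygous pool 5 measured 23.7 against 55.6 to 123.5 in the other homozygous pools, and control pool 1 measured 34.1 against 84.9 to 171 in the other controls. Hoxd9 measured 74.3 in homozygous pool 5 against 178 to 648, and 306 in control pool 1 against 496.5 to 1053. The same pools were the highest of their groups for 3 of 33 Hox genes, Hoxc8, Hoxd1 and Hoxd8. That is also a smaller share than the 16.5% among all genes. Without both pools, Hoxb2 differed by -0.76 and Hoxb4 by -0.67, and none of the 33 passed in limma.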
